A study of Mus musculus with 32 samples.

Results

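Cdkn2a, Cdkn2b, Trp53, Mdm2 and Mdm4, genes of the p53 and Rb tumour suppressor pathways, were followed across 32 lymphomas that arose in Eµ-myc transgenic mice. Members were chosen by name, as probe sets annotated to 1 of these symbols and to no other gene. The probe set with the highest mean over the tumours led each gene. The rule found 9 probe sets of 4 genes among the 34958 probe sets of 18194 genes with 1 symbol. Cdkn2a and Cdkn2b had 1 probe set each, Mdm2 had 3 and Mdm4 had 4. Trp53 had no probe set annotated to it alone, so its level was not analysed here. Of the 9 probe sets, 7 had a mean of at least 5.78 on the log2 scale, the median over all probe sets, which was the filter on level. The lowest Mdm2 and the lowest Mdm4 probe set lay below it.

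Each tumour had 1 Affymetrix Mouse430_2 array. In these mice Myc is under the control of the immunoglobulin heavy chain enhancer, which is active in B lineage cells. Every tumour carries that transgene, and the labels name no other allele, no treatment, no age and no control. They give 1 group, so tumours could only be compared with each other, and each is named by its number, from 1 to 32. Neither the mouse behind a tumour, nor whether its RNA came from tissue or from dissociated cells, was stated for single tumours. The p-values are too small if some tumours shared a mouse. In bulk RNA, fewer cells of a type and less RNA per cell cannot be told apart.

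Cdkn2a encodes 2 unrelated proteins from alternative first exons. p16Ink4a inhibits the cyclin D kinases Cdk4 and Cdk6 and keeps the Rb protein active, whereas p19Arf holds Mdm2 away from p53. Cdkn2b, its neighbour, encodes p15Ink4b, another inhibitor of Cdk4 and Cdk6. Mdm2 is the ubiquitin ligase that marks p53 for breakdown and is itself a p53 target gene. Its relative Mdm4 binds p53 and blocks its activity as a transcription factor. In the Eµ-myc model, loss of p19Arf or of p53 is well known to speed lymphoma onset, and p53 that has lost its function is known to be accompanied by high p19Arf.

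The upstream sequence of the 2 Cdkn2a start sites and of Cdkn2b is shown because Cdkn2a has 2 transcripts and 1 probe set. Which of them its probes match was not checked, since probe sequences were not used here, so the level is given for the gene as a whole. Each run holds the 250 bases before a start on the minus strand of chromosome 4, from RefSeq on build GRCm38.p6, and capitals mark motif matches. The first, for the Arf side, is chr4:89294620-89294869. The second, for the Ink4a side, is chr4:89282193-89282442. The third, for Cdkn2b, is chr4:89311033-89311282.
Cdkn2a, Arf side: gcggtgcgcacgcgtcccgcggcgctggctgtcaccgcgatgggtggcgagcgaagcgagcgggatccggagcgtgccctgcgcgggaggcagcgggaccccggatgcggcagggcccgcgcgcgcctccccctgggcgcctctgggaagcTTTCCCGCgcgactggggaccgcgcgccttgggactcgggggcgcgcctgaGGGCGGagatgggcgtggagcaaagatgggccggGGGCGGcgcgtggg
Cdkn2a, Ink4a side: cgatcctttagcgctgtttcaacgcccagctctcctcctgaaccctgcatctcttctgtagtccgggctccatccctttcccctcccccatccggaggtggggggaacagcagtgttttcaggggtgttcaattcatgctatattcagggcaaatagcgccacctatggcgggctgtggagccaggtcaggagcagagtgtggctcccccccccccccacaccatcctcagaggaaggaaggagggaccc
Cdkn2b: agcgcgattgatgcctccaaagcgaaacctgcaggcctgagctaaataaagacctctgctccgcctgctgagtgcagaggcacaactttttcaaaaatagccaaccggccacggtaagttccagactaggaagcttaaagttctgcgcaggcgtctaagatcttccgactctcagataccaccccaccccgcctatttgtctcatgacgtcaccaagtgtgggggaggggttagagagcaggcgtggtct
The motifs searched on both strands were the Myc-Max E-box CACGTG, the E2F words TTTCCCGC, TTTCGCGC, TTTGCCGC and TTTGGCGC, and the Sp1 GC box GGGCGG. None overlapped in these windows. The Arf side held 1 E2F word, 2 GC boxes and 40 CpG pairs at 78.4% G and C. The Ink4a side held 7 CpG pairs and the Cdkn2b window 12, with none of the motifs. Over 32851 windows of the same length, 6.02% held an E-box, 1.86% an E2F word and 32.7% a GC box. A match describes the letters of the window and is no evidence of a bound site.

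The array medians lay between 5.72 and 5.80, and 0 pairs of arrays were identical. Of 8 B lineage markers 7 were tested, each kept for a mean of at least 5.78, and all 7 stood above 5.78 in each of the 32 tumours. The list includes Ptprc, which other leukocytes express too. Some tumours stood apart. Bpifa2, a salivary gland gene, was at or above 12.97 in 11 tumours and at or below 5.19 in the other 21. The T cell score, a mean of standardised marker levels, was 3.17 in tumour 24 and 2.64 in tumour 2, and the next highest was 1.45. Results were computed again without these tumours, and are given so where they changed. Differences between arrays may in part be technical. Hybridisation control probe sets had SDs of 0.09 to 0.20 over the arrays and poly-A controls of 0.27 to 0.36.

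Cdkn2a (probe set 1450140_a_at) was among the most variable genes of these tumours. Its log2 level ranged between 3.79 in tumour 28 and 10.79 in tumour 7, with a median of 5.96 and a mean of 6.19 ± 1.90 (SD, n = 32). That SD was the 38th largest of the 11228 genes in the table, above that of 99.66% of them. The tumours fell apart at the top, with tumours 7, 14 and 23 at 10.79, 10.70 and 10.72 and the next, tumour 10, at 8.51. At the low end 8 tumours lay close together, between 3.79 and 4.43 (tumours 28, 30, 15, 3, 11, 25, 21 and 29), below tumour 1 at 4.94. A level near 4 may be the array's background, so these tumours have no firm order.

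The other 3 genes varied little. Cdkn2b (1449152_at) had its lowest level, 5.53, in tumour 19, a median of 5.85, and its highest, 6.43, in tumour 24, followed by 6.32 in tumour 6 and 6.28 in tumour 2 (mean 5.87 ± 0.21, SD, n = 32). Mdm2 (1423605_a_at) ranged between 8.85 in tumour 3 and 9.63 in tumour 29 around a median of 9.21 (mean 9.26 ± 0.18, SD, n = 32). Mdm4 (1460542_s_at) ranged between 9.20 in tumour 2 and 10.17 in tumour 15 around a median of 9.71 (mean 9.74 ± 0.23, SD, n = 32). Their SDs lay under 0.28, the median SD of all genes, and under 0.27, the smallest SD of the poly-A controls. None of the 3 fell into clusters, taken as a gap of at least 25% of the range with at least 3 tumours on each side.

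**Figure D1:**
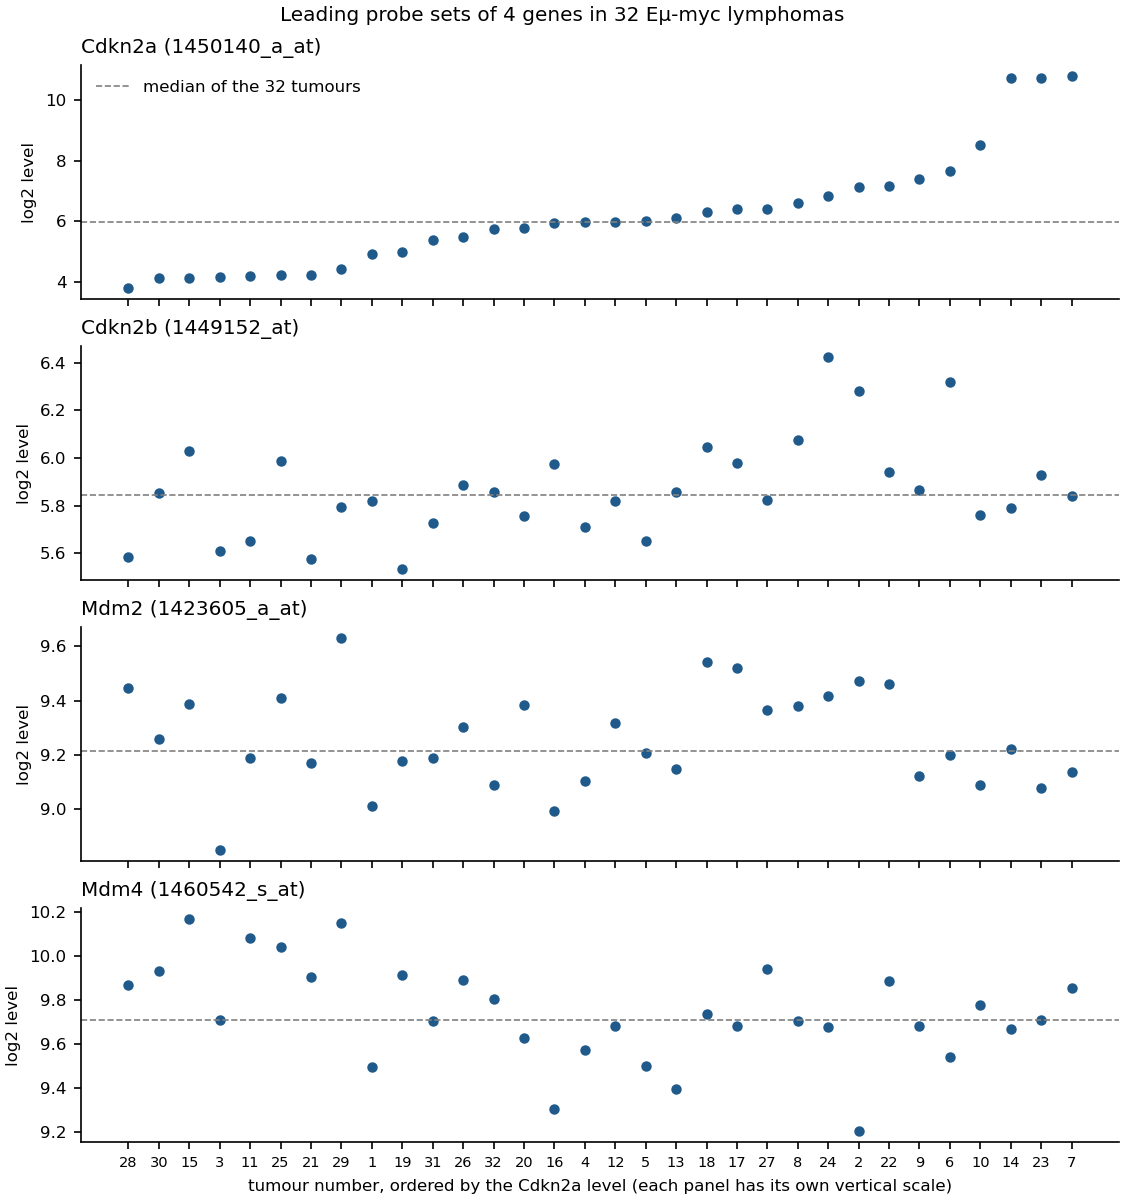
Log2 level (vertical axis, own scale in each panel) of the leading probe set of Cdkn2a, Cdkn2b, Mdm2 and Mdm4 in each of 32 tumours, ordered along the horizontal axis by Cdkn2a; points are single arrays and the dashed line is the median. Cdkn2a spans 3.79 to 10.79 with 3 tumours set apart at the top, whereas the other 3 genes each span less than 1 log2 unit.

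Probe sets of 1 gene did not always rank the tumours alike. The leading and second (1427718_a_at) Mdm2 probe sets moved together, with r = 0.70 and rho = 0.72 over 32 tumours (adjusted permutation p = 0.00018 and 0.00027 over 9 pairs of probe sets), and r = 0.66 without the 2 tumours farthest from the median. Both were highest in tumour 29, at 9.63 and 7.58. The third Mdm2 probe set (1457929_at, mean 3.65) was at r = 0.18 with the leading one (adjusted p = 0.749).

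The Mdm4 probe sets were less alike. The leading probe set and the second, 1419558_at, gave r = 0.41 (adjusted permutation p = 0.0818, rho = 0.32), and r = 0.33 without the 2 far tumours. The third, 1458223_at, gave r = 0.02 (adjusted p = 0.934), and the fourth, 1453982_at, gave r = -0.11 (adjusted p = 0.823). The second ranged between 5.67 in tumour 6 and 6.88 in tumour 29. The suffix of the leading probe set marks one whose probes may match several transcripts.

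**Figure D2:**
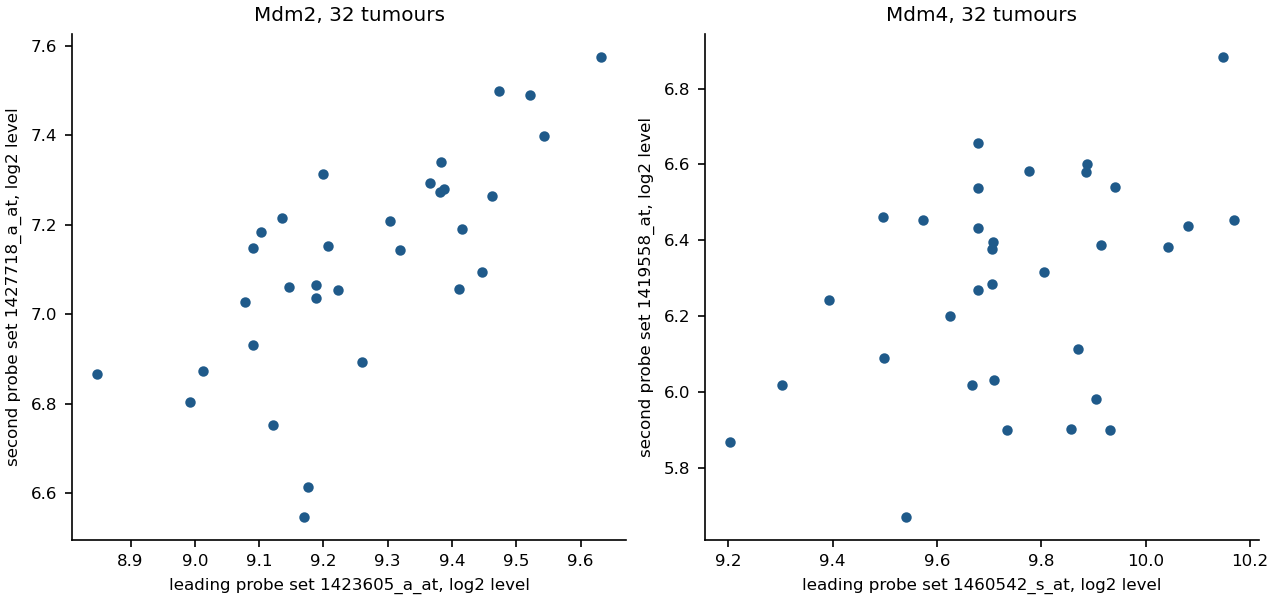
Leading against second probe set, both as log2 levels, for Mdm2 (left) and Mdm4 (right); each point is 1 of 32 tumours. The Mdm2 probe sets rise together (r = 0.70), and the Mdm4 probe sets are more scattered (r = 0.41).

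Whether members moved together was asked over the tumours, with Cdkn2a taken within the 29 tumours below the gap. Relations were tested with permutation tests of 100000 resamples and adjusted over the 42 computed, 6 between members and 36 with other measures. After adjustment 0 of the 42 passed at 0.05, and 11 had an unadjusted p under 0.05. The closest were Cdkn2a with Cdkn2b and Cdkn2a with Mdm4.

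Cdkn2a with Cdkn2b gave r = 0.50 (n = 29, permutation p = 0.00518, adjusted p = 0.0648; rho = 0.50, adjusted p = 0.0921). Without the 2 tumours farthest from the Cdkn2a median r was 0.57. It was 0.65 with an adjusted p of 0.0344 without the tumours with high Bpifa2 (n = 18), and 0.29 over all 32 tumours. Cdkn2a with Mdm4 gave r = -0.51 (n = 29, permutation p = 0.0050, adjusted p = 0.0648; rho = -0.50, adjusted p = 0.0921) and r = -0.58 without the 2 far tumours. With the mean of the Mdm4 probe sets r was -0.23 (adjusted p = 0.432). Leaving out tumour 10 brought both relations past the threshold, at r = 0.61 and r = -0.58.

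Cdkn2a and Mdm2 gave r = 0.03 (adjusted permutation p = 0.955, rho = 0.09), and 0.20 without the 2 far tumours. Cdkn2b with Mdm2 gave r = 0.36 (n = 32, adjusted p = 0.157, rho = 0.36) and 0.41 without the far tumours. Cdkn2b with Mdm4 gave r = -0.29 (adjusted p = 0.291, rho = -0.17) and -0.26. Mdm2 with Mdm4 gave r = 0.30 (adjusted p = 0.282, rho = 0.24) and 0.22. When arrays were shifted by the mean of 7 reference genes, Cdkn2b with Mdm2 and Mdm2 with Mdm4 passed, at r = 0.46 and r = 0.45. Cdkn2a with Mdm4 passed there too, with a negative r. The same amount per array (SD 0.06) was subtracted from both genes of a pair, which can by itself raise r. The 2 passes with a positive r therefore cannot decide whether those genes moved together.

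The genes that followed Cdkn2a were sought by fitting every other gene's log2 level on the Cdkn2a level with limma, scaled to 1 SD of Cdkn2a over the 29 tumours. Of 11227 genes tested 0 passed an adjusted p of 0.05 (0% higher and 0% lower), and 1178 had an unadjusted p under 0.05. Over all 32 tumours 0 passed and 488 had an unadjusted p under 0.05. Other settings called 0 to 2 genes, and leaving out 1 tumour called 0 to 6, with 6 without tumour 10 and 3 without tumour 6. Cyfip2, a subunit of the WAVE complex that shapes the actin skeleton, passed on the ranks of Cdkn2a (adjusted p = 0.0379) and with shifted arrays (adjusted p = 0.0339).

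The genes most like Cdkn2a over the 29 tumours are given as a description. They were Nr1h3 (r = 0.65), a sterol-sensing nuclear receptor, Csf1 (r = 0.65), a macrophage growth factor, Pkmyt1 (r = 0.63), a kinase that inhibits Cdk1, Sdf2l1 (r = 0.63), of the endoplasmic reticulum, and Cnot11 (r = 0.63), of the mRNA deadenylase complex. The most opposed were Ttc5 (r = -0.71), a p53 cofactor, Cyfip2 (r = -0.70), Elf1 (r = -0.69), an ETS factor, Mms19 (r = -0.68), of iron-sulfur cluster assembly, and Dok3 (r = -0.68), an adaptor of the B cell receptor. None of these 10 passed, with adjusted p-values between 0.129 and 0.239.

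Targets of p53 were described along the Cdkn2a level because p19Arf acts through p53. Of 30 listed target genes 25 were tested, and 0 passed in either direction. In all, 15 had a positive slope, 6 of them with an unadjusted p under 0.05, against 3 of those with a negative one. Over all genes 1178 of 11227 had an unadjusted p under 0.05, in both directions together. The median r of the list was 0.22, against 0.00 over all genes. Bax was not among the tested genes.

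Individual targets spread widely. Phlda3, an inhibitor of Akt, had a slope of 0.18 ± 0.06 log2 units per SD of Cdkn2a (SE; r = 0.51). Pmaip1, the BH3-only death gene Noxa, had 0.44 ± 0.14 (r = 0.51), and Ccng1, cyclin G1, had 0.18 ± 0.06 (r = 0.51). Bbc3, the BH3-only death gene Puma, had 0.19 ± 0.08 (r = 0.41). Cdkn1a, the kinase inhibitor p21, had 0.34 ± 0.15 (r = 0.38), and Zmat3, an RNA-binding target, had 0.42 ± 0.22 (r = 0.34). These 6 had adjusted limma p-values between 0.247 and 0.504. Btg2, an antiproliferative target, and Rrm2b, a ribonucleotide reductase subunit, ran the other way, at -0.24 ± 0.09 (r = -0.44) and -0.23 ± 0.10 (r = -0.41).

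**Figure D3:**
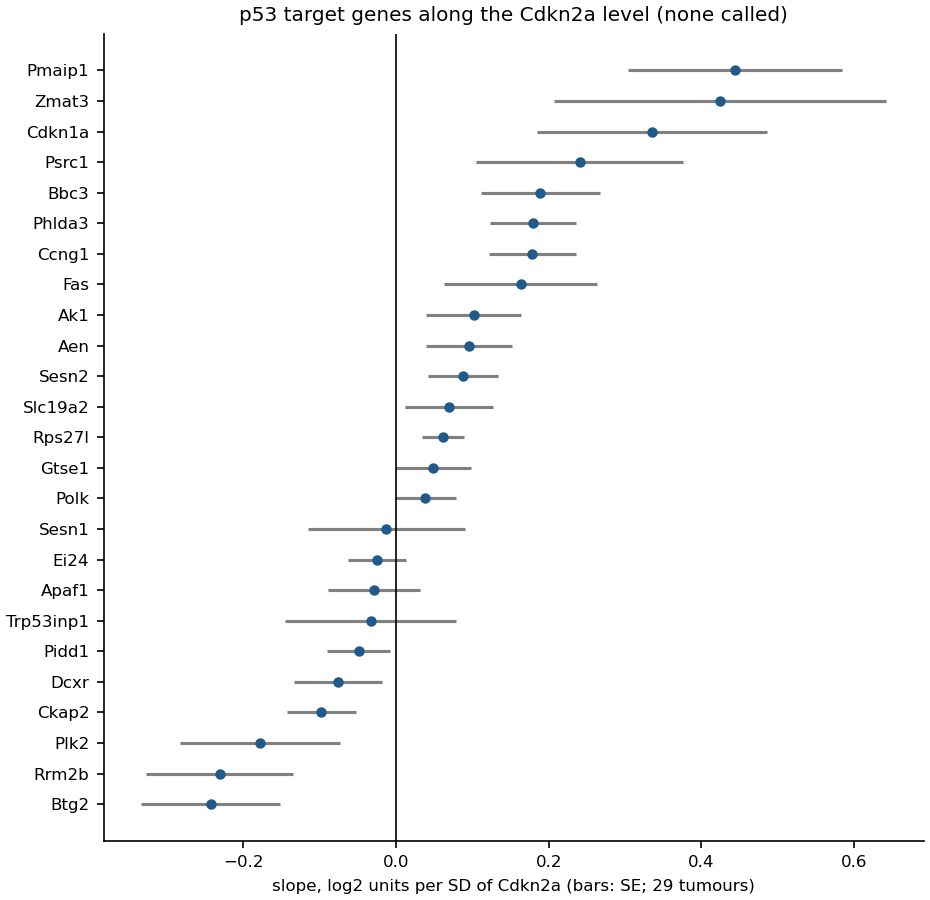
Slope of each of 25 tested p53 target genes along the Cdkn2a level, in log2 units per SD of Cdkn2a (horizontal axis), over 29 tumours; bars are SE and the vertical line marks 0. Of these, 15 lie above 0 and none passed an adjusted p of 0.05.

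The score of the p53 target list, without Mdm2, gave r = 0.40 with Cdkn2a within the 29 tumours (permutation p = 0.033, adjusted p = 0.139; rho = 0.43, adjusted p = 0.121), and r = 0.41 without the 2 far tumours. The 3 tumours above the gap lay low in that score. Tumours 7, 14 and 23 had scores of -0.49, -0.42 and -0.39, the 3 lowest of the 32, around a median of -0.03. Their myeloid scores were low too, at -0.67, -1.09 and -0.92, ranks 5, 2 and 4 from the lowest, and the myeloid gene Csf1r was 9.34, 8.89 and 9.20 around a median of 10.04. The part of myeloid cells in these target scores was not tested. Ccng1 was also lowest in these 3, at 9.58 in tumour 7, 9.59 in tumour 14 and 9.34 in tumour 23, against a median of 10.10. Cdkn1a was 7.32 in tumour 7 and 6.98 in tumour 14, the third and the first from the bottom, but 7.95 in tumour 23 against a median of 8.06. Pmaip1 did not follow, at 6.97, 8.27 and 7.70 around a median of 7.73. In tumours 7, 14 and 23, Bbc3 was 7.90, 6.90 and 7.06 around a median of 7.73. Zmat3 was 7.93, 6.21 and 7.55 around a median of 7.98. With 3 tumours, chosen by their Cdkn2a level, no test was made, and whether p53 itself was altered in them is not stated in the labels.

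Other pathway lists gave no call along Cdkn2a. Of 22 tested Ink4 and Rb pathway genes, 5 ran lower and 1 higher at an unadjusted p under 0.05, beside 1178 of all 11227. The median r of these 22 was 0.04. Among the lower ones were the fellow Ink4 genes Cdkn2d, p19Ink4d, at -0.32 ± 0.07 log2 units per SD (adjusted limma p = 0.129), and Cdkn2c, p18Ink4c, at -0.21 ± 0.08 (adjusted p = 0.358). Of 19 regulators of the p53 protein 0 had an unadjusted p under 0.05. Of 19 regulators of the Ink4a-Arf locus, Dmtf1, which activates the Arf promoter, and Ets1 ran lower (adjusted p = 0.394 and 0.305), and no Polycomb gene had an unadjusted p under 0.05. The 11 tested partners of Mdm2 and Arf had a median r of -0.02. The 11 tested myeloid markers all had positive slopes with a median r of 0.26, as did the 5 T cell markers with 0.30. With 1 covariate for other cell types 0 genes were called along Cdkn2a and 1279 had an unadjusted p under 0.05, and without the 2 highest T cell scores these counts were 0 and 887.

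The genes beside Cdkn2a on chromosome 4 were read next. In the annotation used, Mtap lies on one side and Cdkn2b on the other as the nearest tested genes. Mtap encodes an enzyme of methionine salvage. Its level was 6.59 in tumour 29 and 7.22 in tumour 21, around a median of 10.07, and the next lowest was 8.53 in tumour 30. The same tumours, 29 and 21, were the lowest in each of the 4 Mtap probe sets. In one of them, 1451346_at, they lay at 3.86 and 5.57 where the other 30 tumours were at or above 8.10. Both belong to the 8 tumours with the least Cdkn2a, at 4.43 and 4.24.

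Levels of further neighbours varied. Klhl9, a ubiquitin ligase adaptor, was 10.55 in tumour 29 and 10.24 in tumour 21 around a median of 10.51, and Caap1, an inhibitor of apoptosis, was 8.94 and 9.17, the 2 highest levels, around 8.47. Cdkn2b was 5.80 in tumour 29 and 5.57 in tumour 21, near its narrow range's middle and low end. Tusc1 was 5.48 in tumour 29, the second from the bottom, and 5.86 in tumour 21, around a median of 6.22. Ift74, of the ciliary transport machinery, was lowest in tumour 29 at 4.61 and second lowest in tumour 28 at 5.10, around a median of 6.74. Tumour 28 also belongs to the 8 tumours with the least Cdkn2a. Its mean over the other tested genes of chromosome 4 was -0.32 log2 units from the tumours' centre, and the next lowest was -0.04. Its Mtap was 9.65. DNA copy number was not measured here.

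**Figure D4:**
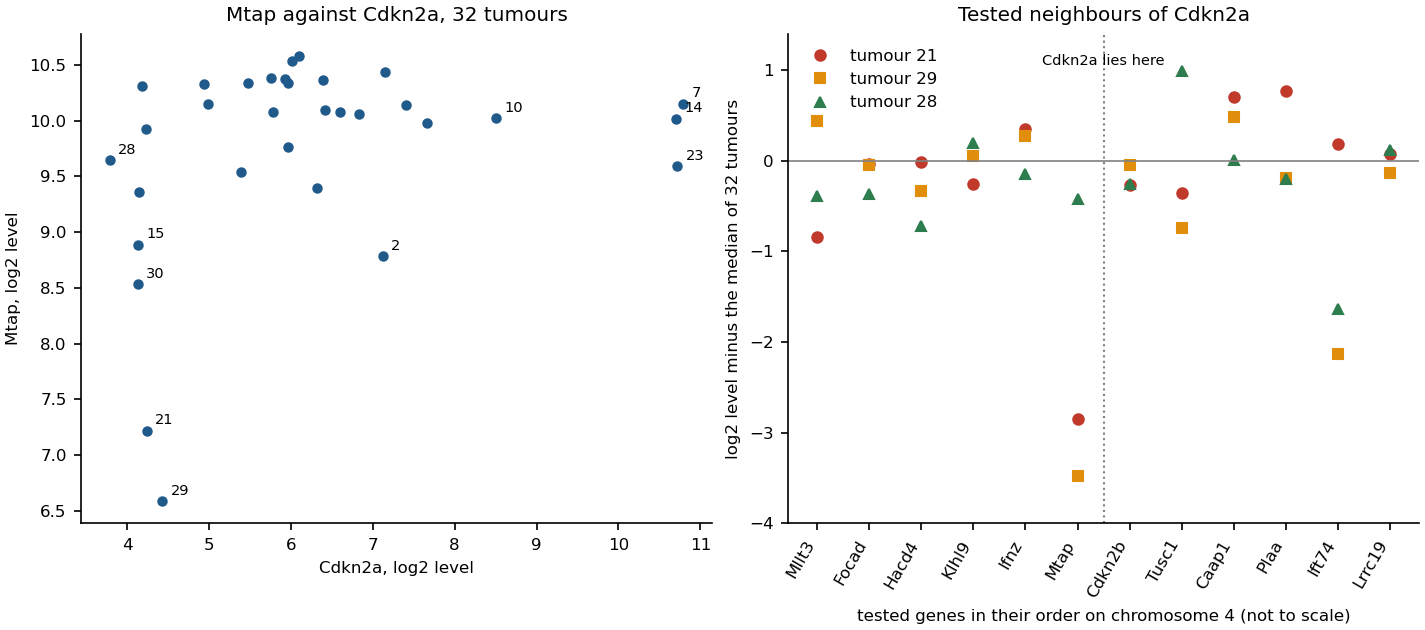
Left, log2 level of Mtap against Cdkn2a in 32 tumours, with tumour numbers at the extremes. Right, log2 level minus the median of all tumours for the 6 tested genes on each side of Cdkn2a in their chromosomal order, in tumours 21, 29 and 28; Mtap is far below 0 in tumours 21 and 29 and Ift74 in tumours 29 and 28.

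Across the 29 tumours Mtap gave r = 0.41 with Cdkn2a (adjusted limma p = 0.374). Of the 20 nearest tested genes on both sides of Cdkn2a 0 were called, with a median r of -0.04. For each of Cdkn2b, Mdm2 and Mdm4 0 of 20 neighbours were called as well, with median r of 0.01, 0.06 and 0.02. Without tumours 21 and 29, a choice made after seeing the data, 0 genes followed Cdkn2a, with 964 at an unadjusted p under 0.05.

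Many genes were called along Cdkn2b, and the count depended on 2 tumours and on the setting. The Cdkn2b probe set was dim, with a mean of 5.87, close to the filter on level of 5.78. In tumour 10, the 10th from the lowest, Cdkn2b was 5.76. How much of its narrow range is background was not tested for Cdkn2b. Along its level over the 32 tumours limma called 520 genes higher (4.63% of those tested) and 410 lower (3.65%). With shifted arrays 648 were higher and 251 lower, and with ranks of Cdkn2b 39 were called in all. In tumours 2 and 24 the T cell score was at its highest, and they held 2 of the 3 highest Cdkn2b levels. Without both 0 genes were called, with 1409 at an unadjusted p under 0.05. Without tumour 24 alone 171 were called, and without tumour 2 alone 312. With 1 covariate for other cell types, averaged from the T cell, myeloid and stroma marker scores, 148 were called, of which 99 were among the 930.

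The genes most like Cdkn2b included ones that macrophages are known to express. Tfec, a transcription factor of the macrophage lineage, followed it at r = 0.79 and 0.54 ± 0.07 log2 units per SD of Cdkn2b (SE; adjusted limma p = 0.000254). Lpcat2 (r = 0.76) makes platelet-activating factor, Aoc1 (r = 0.76) is a diamine oxidase, Lrp8 (r = 0.76) is a lipoprotein receptor and Tspan10 (r = 0.77) is a tetraspanin. The most opposed were Man2a2 (r = -0.73), a Golgi mannosidase, Rftn1 (r = -0.73), a lipid raft protein of B cells, Aamdc (r = -0.72), Cuedc1 (r = -0.71) and Slc1a5 (r = -0.71), a glutamine transporter. All 10 were called with the covariate too, with adjusted p-values between 0.0071 and 0.0268. Without tumours 2 and 24 none passed, with adjusted p-values of 0.0723 or more, and all kept their sign. Slopes there were 0.41 for Lrp8, against 0.48 with all tumours, 0.40 for Tspan10, against 0.51, and -0.24 for Man2a2, against -0.30. Those of Tfec and Lpcat2 were 0.31 and 0.38, against 0.54 and 0.68, and that of Slc1a5 was -0.10, against -0.23.

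Among the marker lists, 6 of 11 tested myeloid genes were called higher with Cdkn2b and 0 lower. Counts called in each list stand beside 4.63% called higher and 3.65% called lower over all genes. The called myeloid genes are named first. They were Lyz2, lysozyme, at 0.59 ± 0.13 log2 units per SD (SE; adjusted limma p = 0.00501), Csf1r, the receptor for Csf1, Mpeg1 and the complement genes C1qa, C1qb and C1qc. Of 5 tested T cell genes Cd4 and Icos were called higher, and of 11 stroma genes Pdgfra was. Only 5 of those 11 stroma genes had positive slopes, 1 ran lower at an unadjusted limma p under 0.05, and their median r was -0.01. Of 7 B lineage genes Cd79a and Cd79b, chains of the B cell receptor, were called lower, at -0.25 ± 0.07 and -0.20 ± 0.05. In that list 3 of the 7 had positive slopes, 1 of them at an unadjusted limma p under 0.05. Without tumours 2 and 24 the slopes were 0.42 for Lyz2, 0.27 for Csf1r, 0.28 for Cd4, -0.02 for Icos, 0.00 for Cd79a and -0.07 for Cd79b, and none passed. Mean log2 levels over the tested markers ranged between 5.70 and 9.76 for the T cell list and between 8.54 and 11.89 for the myeloid list. No other check of their part in the genes called was made than the covariate and leaving out tumours 2 and 24.

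**Figure D5:**
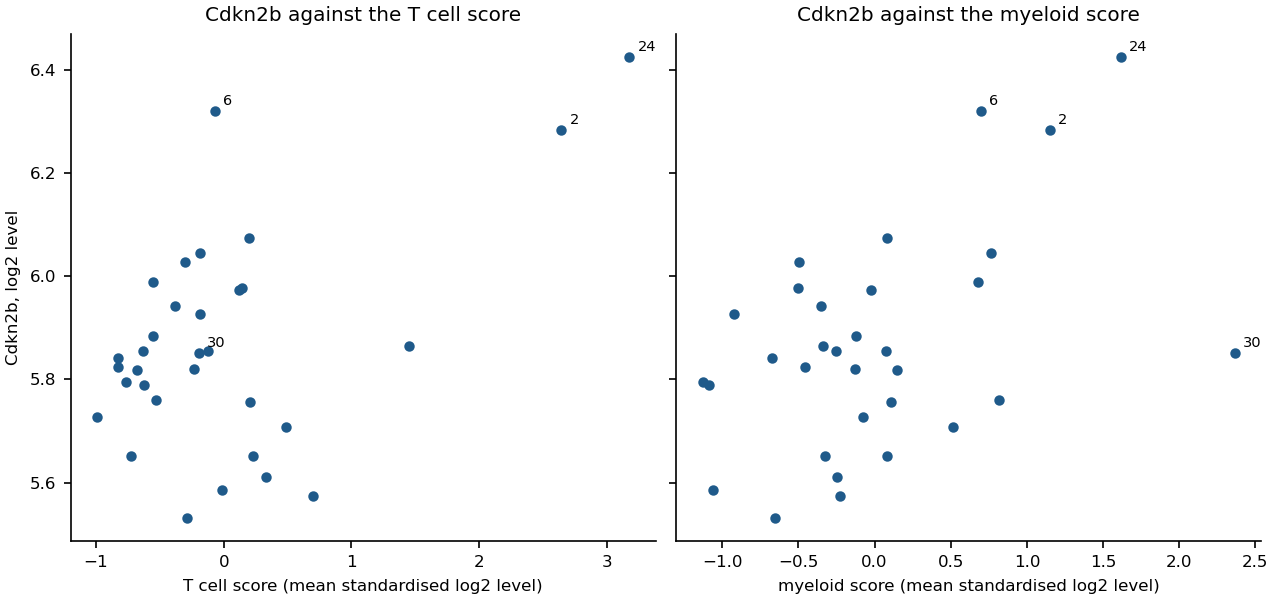
Log2 level of Cdkn2b (vertical axis) against the T cell score (left) and the myeloid score (right), each a mean of standardised log2 marker levels, in 32 tumours. Tumours 2 and 24 combine high Cdkn2b with the highest T cell scores, tumour 6 has high Cdkn2b with a T cell score of -0.07, and tumour 30 has the highest myeloid score with a middling Cdkn2b.

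Cdkn2b gave r = 0.49 with the T cell score (permutation p = 0.00632, adjusted p = 0.0648), but rho was 0.15 (adjusted p = 0.745). Without tumours 6 and 24, the 2 farthest from the Cdkn2b median, r was 0.30, with tumour 2 kept. With the myeloid score r was 0.48 (adjusted p = 0.0648, rho = 0.32) and 0.31 without tumours 6 and 24. With proliferation it was -0.46 (adjusted p = 0.0648, rho = -0.44) and -0.35, and with the Myc level -0.43 (adjusted p = 0.079, rho = -0.22) and -0.29. Tumours 2 and 24 also had 2 of the 3 lowest Myc levels, 9.81 and 10.55, around a median of 11.34.

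Of the 25 tested p53 targets, Pmaip1 and the death receptor Fas were called higher with Cdkn2b, at 0.43 ± 0.13 (adjusted limma p = 0.0338) and 0.33 ± 0.08 (adjusted p = 0.00776) log2 units per SD, and 0 lower. These 2 of 25 stand against 4.63% called higher over all genes, and their slopes without tumours 2 and 24 were 0.27 and 0.04. Of 19 tested p53 regulators and partners, the checkpoint kinase genes Atr and Chek1 were called lower, at -0.14 ± 0.04 and -0.16 ± 0.04, beside 3.65% called lower over all genes. Gnl3, a nucleolar partner of Mdm2 (1 of 11 tested list members), and E2f2 (1 of 22) were also called lower. So were the Polycomb-linked demethylase Kdm2b (1 of 19) and the proliferation marker Mki67 (1 of 19), beside the same 3.65% over all genes. Hif1a was called higher (1 of 11), beside 4.63%. Vpreb3, of precursor B cells, was called lower (1 of 12), although 8 of the 12 tested genes of its list had positive slopes. Without tumours 2 and 24 none of these called genes passed, and the slope of Vpreb3 was 0.10, against -0.61 with all tumours.

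The number of genes called along Mdm2 was small and changed with the setting. Along its level over 32 tumours limma called 1 gene higher and 1 lower (0.00891% each). With shifted arrays 37 were called higher and 9 lower, with the cell type covariate 18 and 40, and without the 2 highest T cell scores 10 and 6. Acy1, an aminoacylase, fell at -0.45 ± 0.08 log2 units per SD of Mdm2 (SE; r = -0.70, adjusted limma p = 0.0271). A probe set annotated to Mir1931 rose at 0.35 ± 0.06 (r = 0.71, adjusted p = 0.0271). It was not matched to a mature miRNA. Mir1931 was lowest in tumour 3 at 5.89 and highest in tumour 17 at 8.01, and Acy1 was lowest in tumour 2 at 6.68 and highest in tumour 11 at 8.93.

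Both calls depended on the setting. With the second Mdm2 probe set as the axis, a choice made after seeing the data, 2 genes were called and 0 were shared, and Acy1 and Mir1931 had adjusted p-values of 0.385 and 0.438. Both were lost with the mean of the Mdm2 probe sets (adjusted p = 0.203 and 0.271) and without the tumours with high Bpifa2 (adjusted p = 0.385 each). Leaving out 1 tumour gave 0 to 44 calls, with 0 without tumour 1 or tumour 4 and 44 without tumour 17, and the count moved by more than 1.5 times for 17 of the 32 tumours.

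Genes most like Mdm2 below the threshold were Cited2 (r = 0.67), which binds the p53 coactivators CBP and p300, Senp2 (r = 0.65), a SUMO protease, Herc4 (r = 0.64), a ubiquitin ligase, and Phc3 (r = 0.63), of Polycomb. Opposed to it were Eif4ebp1 (r = -0.67), a brake on translation, Mapk7 (r = -0.66), the kinase Erk5, Cryl1 (r = -0.66) and the autophagy gene Atg7 (r = -0.66). Their adjusted p-values lay between 0.0519 and 0.0568. Of the 10 genes most like or opposed to Mdm2, 3 lie on its chromosome, 10, namely Mir1931, Cited2 and Herc4. Beyond Mdm2 and its 20 nearest neighbours, that chromosome held 535 of the 11227 genes tested. The mean of the other genes of that chromosome gave r = 0.16 with Mdm2 (adjusted permutation p = 0.694, rho = -0.01) and 0.29 without the 2 far tumours. It was 0.28 log2 units above the tumours' centre in tumour 20 and 0.24 in tumour 17, and the next highest was 0.06 in tumour 25. Mdm2 was 9.38 in tumour 20 and 9.52 in tumour 17, and the part of these tumours was not tested. The nearest tested neighbours of Mdm2, Cpm and Slc35e3, gave r = 0.29 and 0.18.

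Although Mdm2 is a p53 target, the other 25 tested targets gave 0 calls along its level, with a median r of 0.11, against -0.06 over all genes. Polk, a translesion polymerase, came nearest at 0.14 ± 0.04 log2 units per SD (adjusted limma p = 0.0974), followed by Trp53inp1 at 0.26 ± 0.09 (adjusted p = 0.214). Cdkn1a gave r = 0.14, Zmat3 0.22, Ccng1 0.27, Bbc3 0.16 and Pmaip1 -0.15, with adjusted p-values of 0.52 or more. The p53 target score gave r = 0.31 with Mdm2 (adjusted permutation p = 0.282, rho = 0.34), and 0.37 without the 2 far tumours. With arrays shifted by the reference genes it was 0.47 (adjusted p = 0.0435), where the amount subtracted from both sides can by itself raise r.

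Mdm4 was followed by 187 genes called higher (1.67%) and 62 called lower (0.552%) over 32 tumours. Slc38a9, a lysosomal arginine sensor, rose most closely with it, at r = 0.82 and 0.33 ± 0.04 log2 units per SD of Mdm4 (SE; adjusted limma p = 4.69e-05). It was 6.61 in tumour 2, where Mdm4 was lowest, and 8.55 in tumour 25. Clk1, a kinase of splicing factors on the same chromosome as Mdm4, rose at 0.25 ± 0.04 (r = 0.79, adjusted p = 0.000362). The mismatch repair gene Msh3 (r = 0.74), 2810013P06Rik (r = 0.78) and Rnf214 (r = 0.73) rose as well.

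The genes most opposed to Mdm4 were Ppp1r16a (r = -0.69), Hmces (r = -0.69), which shields abasic DNA, Arhgef10l (r = -0.68), Spata17 (r = -0.67) and Snx6 (r = -0.66), a sorting nexin. With the mean of the Mdm4 probe sets the slope of Spata17 was 0.01 (adjusted limma p = 0.754), against -0.08. Hmces had the steepest slope of these, -0.81 ± 0.15, and reached 11.37 in tumour 2 around a median of 6.89. Without tumours 2 and 24 its slope was -0.53 (adjusted limma p = 0.0384). All 5 were called lower, with adjusted p-values between 0.0073 and 0.0263.

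In the p53 pathway Pmaip1 fell with Mdm4, at -0.56 ± 0.11 log2 units per SD (SE; r = -0.66, adjusted limma p = 0.00974), the only call among 25 tested targets, beside 0.552% called lower over all genes. It was called without tumours 2 and 24 (adjusted p = 0.027) and with each single tumour left out (adjusted p up to 0.0375), but not without the tumours with high Bpifa2 (adjusted p = 0.081) or with the second Mdm4 probe set (slope -0.44, adjusted p = 0.0609). Cdkn1a had a slope of -0.38 ± 0.14 (adjusted p = 0.145) and Zmat3 one of 0.21 ± 0.22 (adjusted p = 0.648). The median r of the list was 0.11, against -0.04 over all genes. Of 11 partners of Mdm2 and Arf, Topbp1, a replication checkpoint protein, was called higher at 0.13 ± 0.03 (adjusted p = 0.0293), beside 1.67% called higher over all genes. It was at -0.01 with the second probe set (adjusted p = 0.928), and at 0.09 without tumours 2 and 24 (adjusted p = 0.105).

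The genes that followed Mdm4 depended on the probe set. With 1419558_at as the axis, a choice made after seeing the data, 283 genes were called, of which 2 were shared with the 249 in the same direction (0.803% of the 249, 0.707% of the 283). With the mean of the probe sets 237 were called and 30 were shared. Clk1 had an adjusted p of 0.0925 and Slc38a9 of 0.133 along the second probe set, with slopes of 0.15 and 0.17. The calls also changed with the tumours, to 134 without tumours 2 and 24 (87 shared), 97 without the tumours with high Bpifa2 (46 shared), 82 without tumour 2, 123 without tumour 16, 151 without tumour 5, 162 without tumour 4 and 164 without tumour 25. With shifted arrays 729 were called higher and 62 lower, and with the cell type covariate 156 and 176.

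Mdm4 gave r = 0.44 with the Myc level (permutation p = 0.0108, adjusted p = 0.0648; rho = 0.43, adjusted p = 0.121). It gave 0.34 without tumours 2 and 15, the 2 farthest from the Mdm4 median. With the T cell score it gave r = -0.45 (permutation p = 0.00961, adjusted p = 0.0648; rho = -0.50, adjusted p = 0.0921) and -0.29 without them. Of 10 listed T cell markers 5 were tested, and all 5 ran lower with Mdm4 at an unadjusted p under 0.05. Over all genes 2012 of 11227 had such a p, in both directions together. Cd3d was at -0.61 ± 0.22 and Cd3e at -0.32 ± 0.11 log2 units per SD, and none of the 5 passed adjustment (limma adjusted p of 0.115 or more). These markers move with the same tumours, so they are not separate observations. Of its nearest tested neighbours on chromosome 1, Ppp1r15b gave r = 0.46 (adjusted limma p = 0.137) and Lrrn2 r = -0.36 (adjusted p = 0.295).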

How the data were processed

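Total RNA of 32 Eµ-myc lymphomas was hybridised to Affymetrix Mouse430_2 arrays as biotin-labelled cRNA, per the labels' protocols. The deposited values are log2 levels per probe set that the authors made by RMA (package affy), per the submitters' processing notes. This step equalises the arrays' distributions, so a shift shared by most genes would be hidden, and levels of different probe sets cannot be compared. Its versions were not given in the sources used here.

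Names came from the platform annotation, where 34958 of 45101 probe sets had 1 symbol, 932 several and 9211 none. Each gene was read from its probe set with the highest mean, at or above 5.78, which left 11228 genes. Each axis gene was left out of its own fit, so 11227 were tested per axis with limma 3.58.1 in R 4.3.3 (slope per 1 SD, Benjamini-Hochberg adjusted p under 0.05, two-sided). Relations used two-sided permutation tests in Python 3.11.15 with numpy 2.4.6, scipy 1.17.1 and pandas 2.3.3, and figures matplotlib 3.10.9. Scores were means of standardised log2 levels. The steps were tested on simulated data.

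Named genes were all member probe sets, the 5 genes of largest positive and the 5 of largest negative r per axis, called members of the lists, 6 common p53 targets, and near neighbours. The other p53 targets, Ink4 genes, locus regulators and tumour extremes named were chosen after their values were seen. The members and lists were chosen with earlier results of these data known. The lists were p53 targets, p53 regulators, Mdm2 and Arf partners, Ink4 and Rb genes, locus regulators, proliferation, precursor B cell, and markers of B lineage, T cell, myeloid, stroma, endothelial, erythroid (0 tested), salivary gland and fat cells, with reference genes. Alternatives were the mean of probe sets, no filter, a stricter filter, shifted arrays, all tumours, ranks, a cell type covariate, and tumours left out. Planned results on Trp53 are not reported here. Depth has no meaning for arrays, whose number limits the precision, and the labels name no batch.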

Additional observations from a re-analysis of the deposited data

How the results depend on the processing

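Slopes of 5 named genes changed sign, none past the threshold: without the T cell tumours Cd79a (0.0027), Icos (-0.018) and Vpreb3 (0.098) along Cdkn2b, and along Mdm4 Spata17 with the mean of probe sets (0.013) and Topbp1 with the second probe set (-0.0091). The number of genes following Cdkn2a was 0 in the main setting, 2 with the mean of probe sets (Myl12a and Vamp1), 1 with shifted arrays and 1 with ranks, and 0 to 6 with 1 tumour left out. For Cdkn2b 930 became 542 with the stricter filter, 39 with ranks, 148 with the covariate and 0 without the 2 highest T cell scores, and 171 to 1324 with 1 tumour left out. Its shifted arrays gave 648 higher and 251 lower. For Mdm2 2 became 0 with the mean of probe sets or without high Bpifa2, 4 with the stricter filter or ranks, 46 with shifted arrays (37 higher, 9 lower), 58 with the covariate, 16 without the T cell tumours, and 0 to 44 with 1 tumour left out. For Mdm4 249 became 791 with shifted arrays, 97 without high Bpifa2, 134 without the T cell tumours, and 82 to 320 with 1 tumour left out. Cdkn2a with Cdkn2b passed without high Bpifa2 (r = 0.65), and ranged over r = 0.44 to 0.61 with 1 tumour left out. With shifted arrays Cdkn2a with Mdm4 (r = -0.49), Cdkn2b with Mdm2 (0.46) and Mdm2 with Mdm4 (0.45) passed. The amount subtracted from both genes of a pair can by itself raise r, which bears on the 2 positive values. Cdkn2a with Mdm4 was at r = -0.51 in the main setting. Cdkn2a with Mdm4 ranged over r = -0.58 to -0.47 with 1 tumour left out. The cause of these changes was not tested. No paired analysis was possible because there is 1 group. The planned results on Trp53 were not run. The SDs of the leading Cdkn2b, Mdm2 and Mdm4 probe sets lay below those of all poly-A controls, and those of Cdkn2b and Mdm4 above all hybridisation controls. Dim probe sets near 4 have only a bound.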

Other observations

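Tumour 29 stood at an end in several probe sets of the members, but not in all, a pattern picked out after its values were seen and not tested. It had the highest Mdm2 level in the leading and the second probe set (9.63 and 7.58), the highest Mdm4 level in the probe sets 1419558_at and 1458223_at (6.88 and 6.29) and the second highest in the leading one (10.15). In the probe sets below the filter on level, 1457929_at of Mdm2 and 1453982_at of Mdm4, it was 13th and 9th from the lowest (3.61 and 4.48). It also had the lowest Mtap and Ift74 levels (6.59 and 4.61) and a Cdkn2a level of 4.43, the 8th from the lowest. Its myeloid score, -1.13, was the lowest of the 32 tumours, and it is one of the 11 with high Bpifa2.

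On the lists not described above, endothelial genes gave 0 calls on every axis. Of 3 tested fat cell genes and of 5 tested salivary gland genes 0 were called on any axis. Of 7 tested reference genes B2m was called higher with Cdkn2b (0.20 ± 0.05 log2 units per SD, SE, adjusted limma p = 0.0182), which bears on shifting arrays by these genes. Of 12 tested precursor B cell genes Vpreb3 was the only call on any axis, and of 19 proliferation genes Mki67 was, both lower with Cdkn2b. Along Cdkn2b 8 of the 12 precursor B cell genes had positive slopes, and 0 of the 19 proliferation genes did.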
